A study of Rattus norvegicus with 6 samples.

Results

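Tubulin isotypes are the separately encoded alpha- and beta-tubulins from which microtubules are built. The rule took 10 genes by symbol from the deposited table of rat dorsal root ganglia, the alpha isotypes Tuba1a, Tuba1b, Tuba1c and Tuba4a and the beta isotypes Tubb2a, Tubb2b, Tubb3, Tubb4a, Tubb4b and Tubb5. All 10 were found among the 22864 genes of the table, and all 10 passed the filter on low counts. The table lists 16 alpha and beta genes in all, and the other 6 together held 0.114% to 0.149% of the alpha and beta counts of a library. The members were chosen by symbol, with no threshold, but the family was proposed with earlier results of these same libraries known, and which of their values weighed in that choice is not recorded. Their values are therefore a description, and the p-values given are those of the fit over all genes.

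RNA sequencing was done on L4 to L6 ganglia, taken from the operated side, of wild-type rats in 3 groups of 2 libraries. Both CPIP groups went through a model known as chronic post-ischaemia pain, in which an O-ring of 5.5 mm, the size given for male rats, bound the hind limb close to the ankle for 3 h under pentobarbital. Sham+Veh rats had the anaesthesia and no ring and received vehicle (Veh), CPIP+Veh rats had the ring and vehicle, and CPIP+ETA rats had the ring and etanercept (ETA), a TNF receptor fusion protein that binds TNF. Intrathecal injections were given daily once 2 days had passed since the operation, and ganglia were taken at 7 days. The sources used here give neither strain nor age, nor whether a library is 1 animal or a pool, so p-values measure only the spread between these libraries, which may be technical. Libraries are written below as Sham+Veh 1 and 2, CPIP+Veh 1 and 2, and CPIP+ETA 1 and 2.

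Microtubules form from dimers of alpha- and beta-tubulin, and in a sensory neuron they fill the axon and carry transport between the cell body and the endings. The isotypes differ mostly in their carboxy-terminal tails, which are modified by enzymes and bound by motors and associated proteins. Tubb3 is the beta isotype of neurons. Tuba1a and Tubb2b are prominent in developing and growing neurons. Tuba1b, Tubb4b and Tubb5 are made in most cell types, and Tubb4a is abundant in brain and in myelinating glia.

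Libraries held 18284891 to 19981081 counts. The members took 329725 to 388313 of them, which is 1.80% to 1.96% of a library. Levels below are counts scaled by TMM to a common library size (CPM), which corrects for library composition. All 10 sensory neuron markers were detected in every library, with a summed level of 33787 to 38386 CPM. Isotype sequences are near-identical over long stretches, and 59 of the 60 member values are not whole numbers, so the counts are estimates and the value of any single isotype is uncertain where reads fit more than 1 gene. Transcript lengths are not used here, so levels are compared between libraries, not between isotypes, and shares are shares of reads. In bulk tissue, fewer cells of a type and less RNA per cell cannot be told apart.

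The members that lay above both sham libraries in all 4 CPIP libraries were Tuba1a, Tubb2b and Tubb3. Of all genes tested, 7.42% showed that pattern. Their promoters are shown with that of Tubb2a, the closest relative of Tubb2b. Each run is the 250 bases before the annotated start in RefSeq's annotation of GRCr8, which is not the build the counts were made on, printed 5′ to 3′ on the gene's strand. Tubb2b (chr17:30952836-30953085, plus strand) and Tubb2a (chr17:31001936-31002185, plus strand) lie on the same chromosome, Tubb3 is at chr19:68365437-68365686, plus strand, and Tuba1a at chr7:131995820-131996069, minus strand. Capitals mark the TATA box TATAA on the printed strand, the CCAAT box on either strand, the GC box GGGCGG on either strand and the cyclic AMP response element TGACGTCA.
Tubb2b: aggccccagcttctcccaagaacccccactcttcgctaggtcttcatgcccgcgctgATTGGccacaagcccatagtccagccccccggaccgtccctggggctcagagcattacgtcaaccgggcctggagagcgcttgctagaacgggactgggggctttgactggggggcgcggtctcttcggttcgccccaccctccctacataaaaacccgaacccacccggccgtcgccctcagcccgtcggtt
Tubb2a: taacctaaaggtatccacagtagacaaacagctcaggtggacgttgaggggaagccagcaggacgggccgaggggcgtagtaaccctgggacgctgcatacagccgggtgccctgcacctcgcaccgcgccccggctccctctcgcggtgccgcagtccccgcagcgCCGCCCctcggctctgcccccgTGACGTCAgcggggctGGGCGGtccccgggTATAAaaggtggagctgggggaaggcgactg
Tubb3: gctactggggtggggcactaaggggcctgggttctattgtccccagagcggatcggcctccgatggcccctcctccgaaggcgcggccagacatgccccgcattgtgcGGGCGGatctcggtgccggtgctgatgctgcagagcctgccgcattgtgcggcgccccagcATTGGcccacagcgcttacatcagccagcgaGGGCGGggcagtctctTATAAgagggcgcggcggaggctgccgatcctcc
Tuba1a: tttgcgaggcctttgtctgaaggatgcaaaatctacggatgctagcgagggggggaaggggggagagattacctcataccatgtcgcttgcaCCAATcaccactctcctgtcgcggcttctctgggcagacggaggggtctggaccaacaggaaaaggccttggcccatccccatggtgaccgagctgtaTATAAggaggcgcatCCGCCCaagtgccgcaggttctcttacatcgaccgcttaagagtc

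Of these 4 promoters, TATAA occurs in those of Tubb2a, Tubb3 and Tuba1a, with its first letter 31, 34 and 60 bases before the start. Over all 10 members TATAA occurs in 6, against 16.7% of the 33469 RefSeq promoters of the same length. That background was not filtered by gene type or expression, so it is not matched to the members. The CCAAT box, on either strand, occurs in 7 members and in 34% of all promoters, and the GC box in 8 members and in 30.5%. The cyclic AMP response element occurs in Tubb2a only among the members and in 1.59% of all promoters. The AP-1 sequence TGANTCA, searched on both strands, occurs in none of the 10 and in 6.34% of all promoters. The searched motifs share no letters in the printed runs. These are matches of letters in a window and say nothing of binding.

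CPIP+Veh was compared with Sham+Veh for differences between the ischaemia model and sham. Tubb2b showed the largest difference of the 10 members, at 781 ± 60.0 CPM in CPIP+Veh against 621 ± 10.1 CPM in sham (SD, n = 2), a log2 fold change of 0.33 (SE 0.062). Tubb3 had 0.15 (SE 0.057). The other 8 lay between -0.07 and 0.16. No member passed edgeR's quasi-likelihood test at a Benjamini-Hochberg adjusted p under 0.05 over all 15531 genes tested, where 0.0193% of all genes were called, and 2 members had an unadjusted p under 0.05, both higher and neither lower, against 2.34% of all genes higher and 2.59% lower.

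Tubb2b encodes a beta isotype whose mutation causes cortical malformation in people. Its level was 628 and 613 CPM in Sham+Veh, 738 and 823 CPM in CPIP+Veh, and 689 and 673 CPM in CPIP+ETA. The 3 groups did not overlap, with sham lowest and CPIP+Veh highest, and CPIP+Veh 2 stood above all other libraries. How many of all genes tested separate the 3 groups was not counted, so this order is a description only. For CPIP+Veh against sham the adjusted p was 0.48 with edgeR and 0.504 with limma-voom (which called 0.0129% of all genes), but DESeq2 called it at an adjusted p of 0.000633, where 0.268% of the 17557 genes given an adjusted p were called. Over the other 16 settings tried the adjusted p was 0.338 to 1.0. The log2 fold change stayed between 0.25 and 0.41 over the 17 settings, lowest without CPIP+Veh 2 and highest without CPIP+Veh 1.

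Tubb3, the neuronal beta isotype and a common marker of sensory neurons, stood at 3605 and 3648 CPM in Sham+Veh. The CPIP+Veh libraries had 4034 and 4001 CPM and the CPIP+ETA libraries 4083 and 3694 CPM. The CPIP+Veh libraries lay close together and above sham, while CPIP+ETA 1 was the highest of all 6 and CPIP+ETA 2 lay just above sham. For CPIP+Veh against sham the edgeR adjusted p was 0.938, and the log2 fold change was 0.14 to 0.16 over all settings.

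Tuba1a, an alpha isotype needed for neuronal migration and axon growth, stood at 5496 and 5503 CPM in Sham+Veh, 5635 and 6088 CPM in CPIP+Veh, and 5639 and 5579 CPM in CPIP+ETA. The log2 fold change of CPIP+Veh against sham was 0.09 (SE 0.051, edgeR adjusted p = 0.948). CPIP+Veh 2 alone stood apart, and without it the log2 fold change was 0.03. All 4 CPIP libraries lay above both sham libraries for 3 of the 10 members, a pattern that 7.42% of all genes tested showed, and below both for 0 members, where 8.38% of all genes did.

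**Figure D1:**
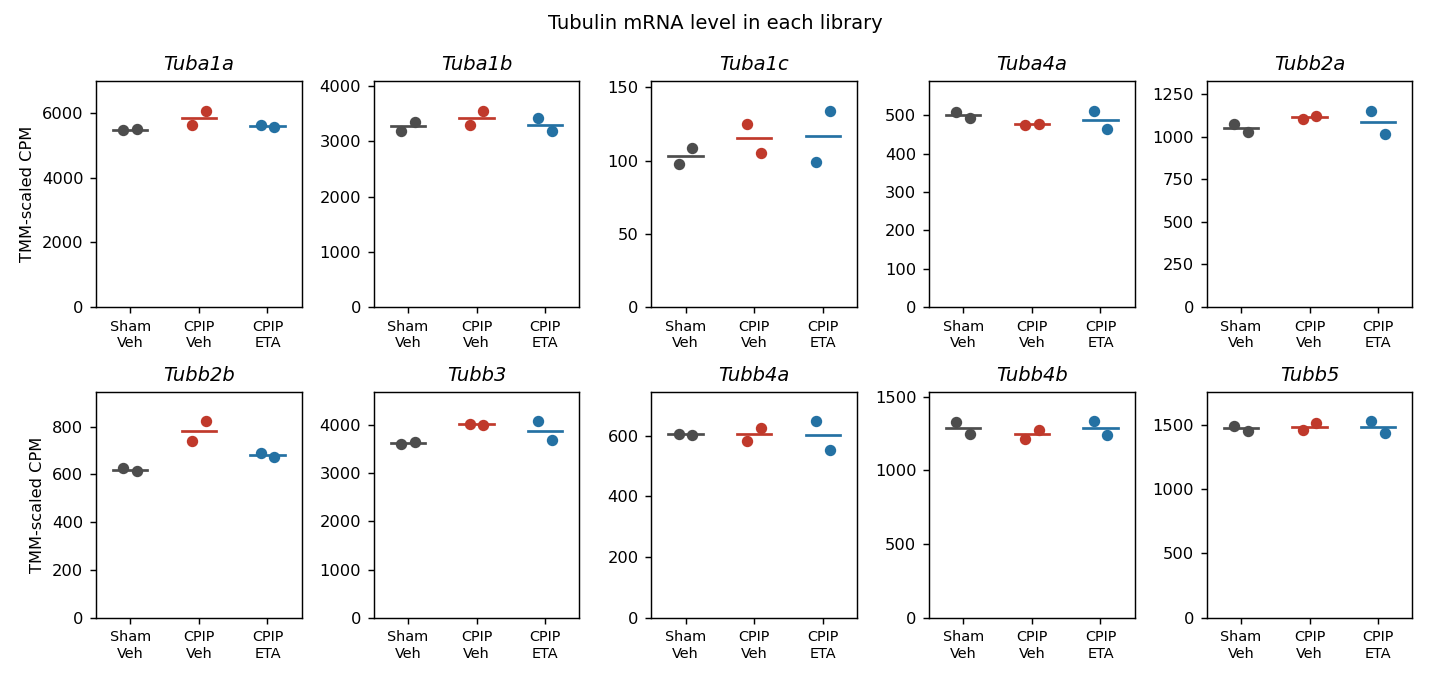
TMM-scaled CPM (vertical axes, from 0) of the 10 tubulin genes in each library, with points for libraries 1 (left) and 2 (right) of Sham+Veh (grey), CPIP+Veh (red) and CPIP+ETA (blue) and lines for group means (n = 2). Tubb2b is the gene whose 3 groups do not overlap, from 613 CPM in sham to 823 CPM in CPIP+Veh. The share of all genes with that pattern was not counted.

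Tubb2a, the near copy of Tubb2b, stood at 1076 and 1029 CPM in Sham+Veh, 1102 and 1123 CPM in CPIP+Veh, and 1153 and 1017 CPM in CPIP+ETA. CPIP+Veh lay above sham, and the CPIP+ETA libraries took both ends of the range. The log2 fold change of CPIP+Veh against sham was 0.08 (SE 0.067). The ratio of Tubb2b to Tubb2a counts does not depend on scaling between libraries, and it was chosen after the values were seen. Sham+Veh had ratios of 0.583 and 0.596, CPIP+Veh 0.670 and 0.733, and CPIP+ETA 0.598 and 0.661. Both CPIP+Veh ratios exceeded those of all other libraries, and that of CPIP+ETA 1 lay just above sham.

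Of the isotypes made in most cell types, Tuba1b stood at 3188 and 3346 CPM in Sham+Veh, 3289 and 3556 CPM in CPIP+Veh, and 3418 and 3184 CPM in CPIP+ETA. Tubb5 stood between 1433 and 1527 CPM and Tubb4b between 1214 and 1333 CPM over the 6 libraries. All 3 of these genes overlapped between every pair of groups. Their log2 fold changes for CPIP+Veh against sham were 0.07 (SE 0.061), 0.01 (SE 0.052) and -0.05 (SE 0.059).

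Tuba4a, an alpha isotype in which mutations are linked to motor neuron disease, stood at 508 and 493 CPM in Sham+Veh, 475 and 477 CPM in CPIP+Veh, and 512 and 464 CPM in CPIP+ETA. It was the 1 member whose CPIP+Veh libraries both lay below sham, with a log2 fold change of -0.07 (SE 0.059). Tubb4a stood at 605.5 and 603.9 CPM in Sham+Veh, 585 and 626 CPM in CPIP+Veh, and 648 and 554 CPM in CPIP+ETA, with group means of 604.7, 605.1 and 601.2 CPM. Its spread between the CPIP+ETA libraries exceeded any difference between group means.

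Tuba1c, a minor alpha isotype, stood at 97.6 and 109 CPM in Sham+Veh, 125 and 105 CPM in CPIP+Veh, and 98.7 and 134 CPM in CPIP+ETA. It had the widest range of the members over the libraries, 0.46 on the log2 scale, followed by Tubb2b at 0.42, but its groups overlapped in every comparison. CPIP+Veh 1 and CPIP+ETA 2 were its high libraries, the reverse of the order within those groups for most other members. Among 10220 other genes with a mean of at least 10 CPM, the 5 whose centred log2 profiles over the 6 libraries lay nearest to that of Tuba1c were Frat2, Arhgef37, Ajuba, Pik3c2a and Prps2. Their root mean square differences from it were 0.0371 to 0.0574 on the log2 scale, and likeness over 6 libraries among so many genes is a description only.

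In all, CPIP+Veh lay above sham without overlap for 4 members, where 17.6% of all genes tested did, and below it for 1, where 19.5% did. Of the 10 log2 fold changes 8 were above 0, against 49% of all genes tested, and the members' median was 0.07 where the median of all genes was -0.0031. Without CPIP+Veh 2 the count was 6 of 10 and the median 0.02. The summed level of the 10 members was 18021 and 18043 CPM in Sham+Veh, 18653 and 19587 CPM in CPIP+Veh, and 19101 and 17974 CPM in CPIP+ETA. Both CPIP+Veh sums exceeded both sham sums, while the CPIP+ETA sums lay on either side of sham. The log2 ratio of group means was 0.08 for CPIP+Veh over sham, and 0.05 without CPIP+Veh 2. With 2 libraries against 2 an exact permutation test cannot go below a two-sided p of 0.33, so no test of the sums, ratios or shares is given.

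CPIP+ETA was compared with CPIP+Veh for differences with etanercept in the model. Tubb2b was again the member with the largest difference, at 681 ± 11.7 CPM with etanercept against 781 ± 60.0 CPM with vehicle (SD, n = 2), a log2 fold change of -0.20 (SE 0.062, edgeR adjusted p = 0.938, DESeq2 adjusted p = 0.755). Over the 17 settings its adjusted p was 0.58 to 0.998 and its log2 fold change was -0.27 to -0.12, with -0.12 without CPIP+Veh 2. The other 9 members lay between -0.06 and 0.05 and overlapped between the groups. No member was called, where edgeR called 0% of all genes (0 of 15531), DESeq2 0.128% and limma-voom 0%, and 1 member, Tubb2b, had an unadjusted p under 0.05, lower, against 2.73% of all genes lower and 2.42% higher. CPIP+ETA lay below CPIP+Veh without overlap for 1 member, where 16.9% of all genes did, and above it for 0 members, where 15.7% did. The members' median was -0.02 and that of all genes -0.0016, and 3 of 10 lay above 0, against 49.6% of all genes. The members' median was -0.04 without CPIP+Veh 1, -8e-04 without CPIP+Veh 2 with 5 above 0, -0.09 without CPIP+ETA 1 with 2 above 0, and 0.03 without CPIP+ETA 2 with 6 above 0.

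CPIP+ETA was also compared with Sham+Veh. The largest log2 fold changes were 0.17 for Tuba1c (SE 0.15), 0.13 for Tubb2b (SE 0.062) and 0.10 for Tubb3 (SE 0.057). Without CPIP+ETA 2 the value of Tuba1c turned to -0.06, and without CPIP+ETA 1 it was 0.39. That of Tubb3 was 0.03 without CPIP+ETA 1 and 0.18 without CPIP+ETA 2. The remaining 7 lay between -0.03 and 0.04. No member was called (edgeR called 0.0193% of all genes, DESeq2 0.274% and limma-voom 0.00644%), and edgeR gave 0 members an unadjusted p under 0.05, against 2.64% of all genes higher and 3.73% lower. Of the 10 log2 fold changes 8 were above 0, against 49.3% of all genes, and without CPIP+ETA 1 the count was 4 of 10. CPIP+ETA lay above sham without overlap for 3 members, Tuba1a, Tubb2b and Tubb3, where 17.2% of all genes did, and below it for 0, where 18.5% did. The 3 comparisons share libraries, since each group enters 2 of them, so their values for a gene are not independent.

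**Figure D2:**
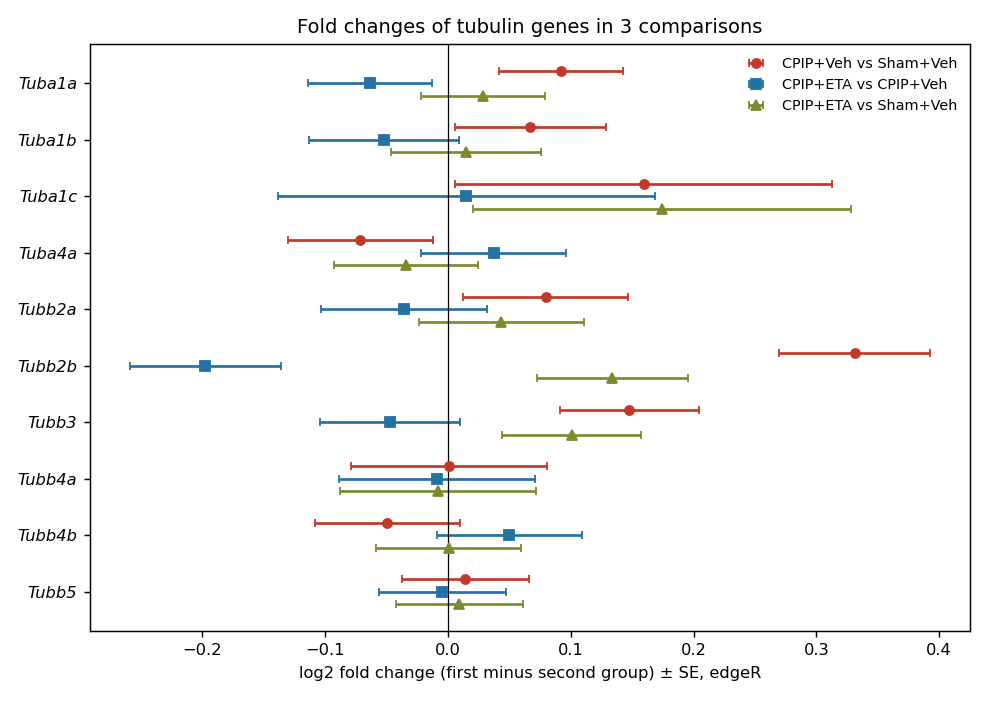
Log2 fold change (horizontal axis, first minus second group) with its SE (bars) from edgeR for the 10 tubulin genes in CPIP+Veh vs Sham+Veh (red circles), CPIP+ETA vs CPIP+Veh (blue squares) and CPIP+ETA vs Sham+Veh (olive triangles). Tubb2b lies farthest from 0 in the first 2 of these, at 0.33 and -0.20.

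Shares of reads within the alpha and beta classes show the same genes free of scaling between libraries. Tuba1a held 58.7% ± 0.66 of the alpha member counts in Sham+Veh, 59.3% ± 0.26 in CPIP+Veh and 59.0% ± 0.90 in CPIP+ETA (SD, n = 2). Tuba1b held 34.9% ± 0.77, 34.7% ± 0.17 and 34.7% ± 0.95. The Tuba1a share was 0.65 points higher in CPIP+Veh than in sham, where the pooled SD was 0.50 points, and the nearest libraries of these 2 groups both rounded to 59.2%. Tuba1c held 1.02% to 1.43% over the 6 libraries. Tuba4a held 5.47% and 5.21% in Sham+Veh, against 4.98% and 4.67% in the CPIP+Veh libraries and 5.30% and 4.96% with etanercept. Both CPIP+Veh shares of Tuba4a lay below both sham shares, and those of CPIP+ETA overlapped both groups' ranges.

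Within the beta class, Tubb3 held 41.3% and 42.5% of the member counts in Sham+Veh, 44.2% and 42.7% in the CPIP+Veh libraries and 43.3% and 42.9% with etanercept. All 4 CPIP shares lay above both sham shares, by a difference in means of 1.60 percentage points for CPIP+Veh, which went down to 0.88 when CPIP+Veh 1 was left out and to 1.01 when Sham+Veh 1 was, and up to 2.32 when CPIP+Veh 2 was. Tubb2b held 7.19% and 7.14% in Sham+Veh, 8.09% and 8.79% in the CPIP+Veh libraries and 7.30% and 7.81% with etanercept. Its share was higher in all 4 CPIP libraries than in sham and highest in CPIP+Veh.

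Shares of a class must sum to the whole, and 3 of the other 4 beta members were lower where these were higher. Tubb4b held 14.9% ± 0.49 in Sham+Veh, 13.5% ± 0.22 in CPIP+Veh and 14.3% ± 0.20 in CPIP+ETA (SD, n = 2). Tubb5 held 17.0% ± 0.13, 16.1% ± 0.155 and 16.4% ± 0.32, and Tubb4a 6.98% ± 0.066, 6.54% ± 0.20 and 6.65% ± 0.31. For Tubb4b, Tubb5 and Tubb4a every CPIP library had a share below both sham libraries. The levels of these genes in CPM, by contrast, overlapped between all groups. Tubb2a held 12.1% ± 0.25, 12.0% ± 0.051 and 12.0% ± 0.29. The 95% Wilson intervals of these shares in single libraries reach at most 0.244 percentage points to either side and cover counting error only.

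**Figure D3:**
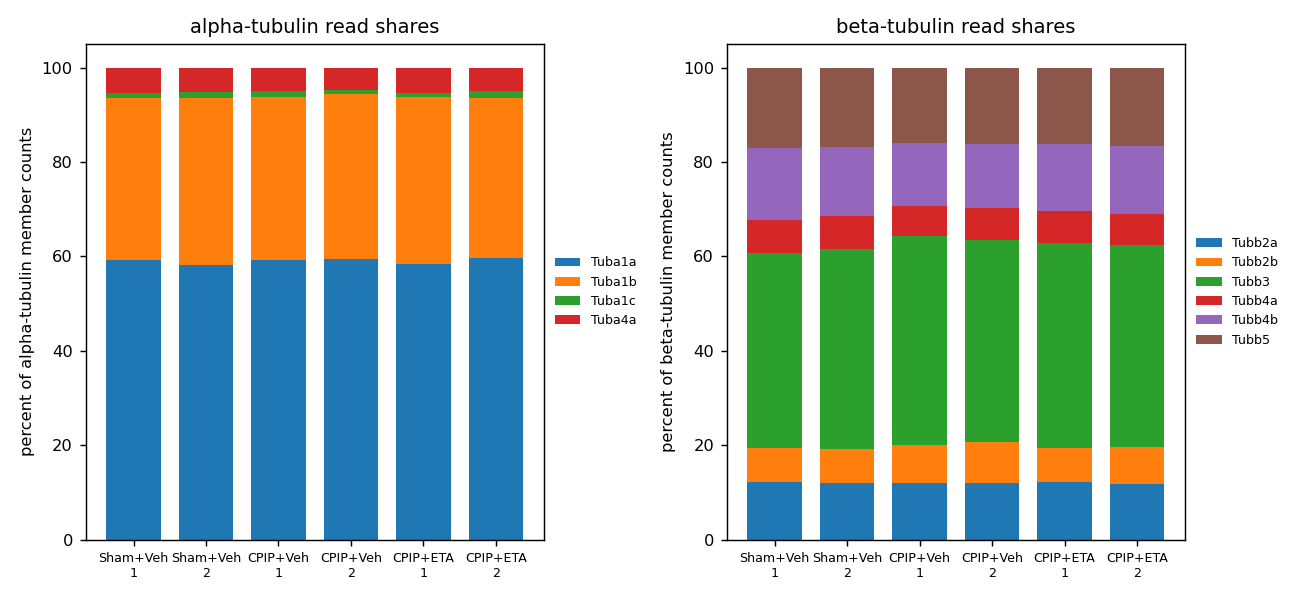
Share of reads (percent, vertical axes) of each isotype within the 4 alpha members (left) and the 6 beta members (right), stacked for each of the 6 libraries. Tuba1a stays at 58.2% to 59.6% of the alpha counts, and the Tubb2b layer goes from 7.14% to 8.79% of the beta counts.

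The ratio of all alpha to all beta member counts was 1.064 and 1.100 in Sham+Veh, 1.043 and 1.093 in the CPIP+Veh libraries and 1.025 and 1.087 with etanercept, and it overlapped between all groups. Libraries of a group differed from each other across the members. In CPIP+ETA, library 1 was higher than library 2 for 9 of the 10 members, all but Tuba1c, and in CPIP+Veh library 2 was higher for 8 of 10. The summed sensory neuron markers were 35907 and 34315 CPM in Sham+Veh, 35459 and 33787 CPM in CPIP+Veh, and 38386 and 34348 CPM in CPIP+ETA, with 0 of 10 markers at 0. The 6 Schwann cell markers summed to 11928 and 14275, 13896 and 11564, and 9484 and 13780 CPM in the same order. CPIP+ETA 1 had the highest neuron sum and the lowest Schwann sum, and the part of cell composition in the tubulin values was not tested.

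Set against the summed neuron markers, the Sham+Veh libraries had 10.04 and 10.6 CPM of Tubb3 per 100 CPM, CPIP+Veh had 11.4 and 11.8, and CPIP+ETA had 10.6 and 10.8. For Tubb2b the sham values were 1.75 and 1.79, those of CPIP+Veh 2.08 and 2.44, and those of CPIP+ETA 1.80 and 1.96. Tuba1a was 15.3 and 16.0, 15.9 and 18.02, and 14.7 and 16.2 in the same order. On this scale, chosen after the values were seen, Tubb3 and Tubb2b lay highest in both CPIP+Veh libraries, while Tuba1a overlapped between all groups. The neurofilament genes Nefl, Nefm and Nefh made up 80.6% to 82.7% of that marker sum, and 5 of the 10 markers lay above 0 and 5 below in CPIP+Veh against sham. Against the markers other than neurofilaments, Tubb3 stood at 57.42 and 60.32 CPM per 100 CPM in sham, 61.55 and 61.04 in the CPIP+Veh libraries and 61.61 and 57.43 with etanercept, so that CPIP+ETA 1 was the highest library. For Tubb2b the sham libraries had 9.997 and 10.14, the CPIP+Veh libraries 11.26 and 12.56 and the CPIP+ETA libraries 10.40 and 10.46. Its groups did not overlap on that scale. Tuba1a ran there from 87.5 to 91.0 for sham, while the CPIP+Veh libraries lay on either side of sham, at 86.0 and 92.9. Its etanercept libraries, at 85.1 and 86.7, both lay below sham. The order of the Tuba1a level, with every CPIP library above sham, was thus not kept on that scale. Markers of fibroblasts, endothelium and smooth muscle were lower in CPIP+Veh than in sham beside these values. Their sums were 2611 and 2804 against 2133 and 2546 CPM for fibroblasts, 75.6 and 80.6 against 61.5 and 61.7 CPM for endothelium, and 102 and 90.5 against 49.0 and 59.2 CPM for smooth muscle, with no marker at 0. The 3 adipocyte markers summed to 6.23 and 2.35 against 0.203 and 0.353 CPM, with 2 of 3 at 0 in a library. The 3 red blood cell markers summed to 78.5 and 74.8 CPM in sham, 22.4 and 97.6 CPM in CPIP+Veh, and 261 and 155 CPM in CPIP+ETA, highest in both etanercept libraries and with none at 0. Over the 6 libraries the sums were 4548 to 5133 CPM for satellite glia, 127 to 162 CPM for macrophages, 7.56 to 49.6 CPM for skeletal muscle and 8.82 to 16.4 CPM for proliferating cells. The part of these cells in the tubulin values was not tested.

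The 6 genes of injured neurons (Atf3, Sox11, Gap43, Gal, Npy and Sprr1a) summed to 283 and 251 CPM in Sham+Veh. The sums were 329 and 443 CPM in CPIP+Veh, and 264 and 304 CPM in CPIP+ETA. Gap43 alone made up most of this injury sum in every library. It stood at 267 and 237, 295 and 344, and 248 and 259 CPM in the same order. Sprr1a was at 0 in both sham libraries. Atf3, a transcription factor induced by axon damage, stood at 7.69 and 6.90 CPM in Sham+Veh, 16.3 and 42.1 CPM in CPIP+Veh, and 6.20 and 23.1 CPM in CPIP+ETA. Within each CPIP group, library 2 was the higher one for Atf3, for the injury sum and for the ratio of Tubb2b to Tubb2a. The share of Tubb3 had the opposite order in both CPIP groups, and the level of Tubb2b itself had it in CPIP+ETA. In sham the ratio was also higher in library 2 (0.583 and 0.596), while Atf3 and the injury sum were higher in library 1.

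**Figure D4:**
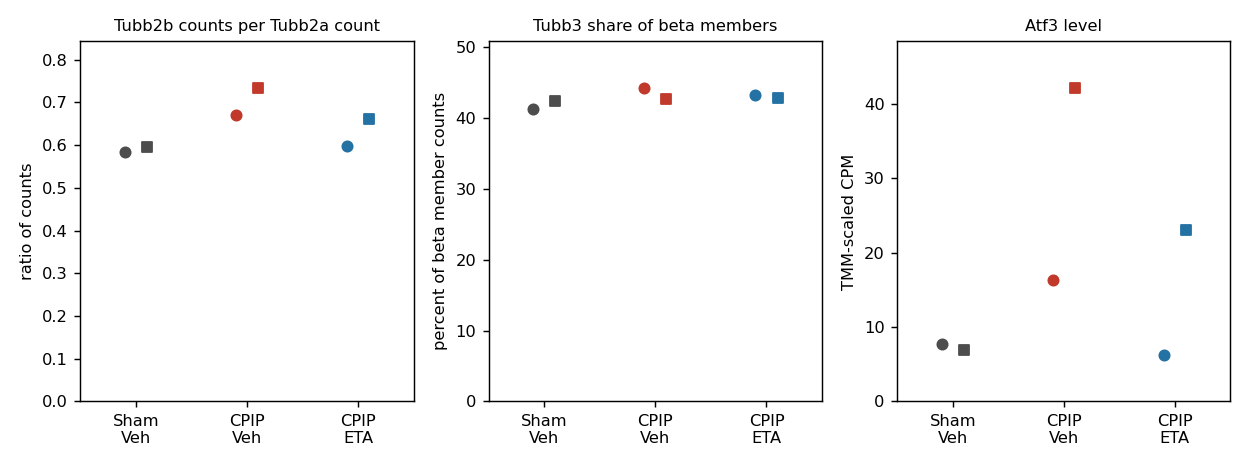
Ratio of Tubb2b to Tubb2a counts, Tubb3 share of beta member counts (percent) and Atf3 level (TMM-scaled CPM) in the 6 libraries, all axes from 0, circles for library 1 and squares for library 2 of Sham+Veh (grey), CPIP+Veh (red) and CPIP+ETA (blue). Library 2 lies above library 1 for the ratio and for Atf3 in both CPIP groups. In Sham+Veh library 2 is higher for the ratio and library 1 for Atf3. The CPIP+Veh ratios of 0.670 and 0.733 exceed the CPIP+ETA ratios of 0.598 and 0.661.

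Genes that make, modify and bind microtubules were counted by list, in CPIP+Veh against sham, where 49% of all genes tested were above 0. Of 13 further tubulin symbols listed, 7 were tested, 3 above and 4 below 0. Tubb6, a beta isotype of low level in the nervous system, stood at 17.2 and 20.7 CPM in Sham+Veh, 22.2 and 25.8 CPM in CPIP+Veh, and 20.5 and 23.6 CPM in CPIP+ETA. Its log2 fold change of 0.34 (SE 0.13) was of the size of that of Tubb2b with a wider error, and it was not called (edgeR adjusted p = 0.938). The gamma-tubulin genes that nucleate microtubules stood at 62.9 to 75.4 CPM for Tubg1 and 21.9 to 24.6 CPM for Tubg2 over the 6 libraries. The delta and epsilon tubulins Tubd1 and Tube1, which belong to centrioles, had -0.26 (SE 0.27) and -0.14 (SE 0.16).

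The stathmins, which bind free tubulin dimers, were all 4 above 0, with a median of 0.12. Stmn4 stood at 21.4 and 22.7 CPM in Sham+Veh, 30.8 and 38.8 CPM in CPIP+Veh, and 25.4 and 27.9 CPM in CPIP+ETA. Its log2 fold change for CPIP+Veh against sham was 0.66 (SE 0.12), which DESeq2 called (adjusted p = 0.0373) and edgeR did not (adjusted p = 0.494). Stmn2, a neuronal stathmin of axon growth, had 0.12 (SE 0.045) and Stmn1 0.11 (SE 0.071). In CPIP+ETA against CPIP+Veh 0 of the 4 stathmins were above 0, with a median of -0.14, where 49.6% of all genes tested were above 0. In that comparison 16 of 23 motor genes, 12 of 22 folding factors and 14 of 31 microtubule-associated proteins were above 0. So were 11 of 20 modifying enzymes, 6 of 14 severing and nucleation genes and 4 of 7 other tubulin genes. Both comparisons use the CPIP+Veh libraries, so opposite signs in them are not independent. Among 23 motor genes, 14 were above 0. Kif5c, a neuronal kinesin heavy chain, stood at 588 and 571 CPM in Sham+Veh, 679 and 673 CPM in CPIP+Veh, and 633 and 585 CPM in CPIP+ETA. Its group means were ordered as those of Tubb2b, though CPIP+ETA overlapped sham, with a log2 fold change of 0.22 for CPIP+Veh (SE 0.054, edgeR adjusted p = 0.775, DESeq2 adjusted p = 0.0489). The kinesin-2 subunit Kif3a had 0.13 (SE 0.049) and the dynein subunit Dync1li2 0.09 (SE 0.044).

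Microtubule-associated proteins were above 0 for 20 of 31 genes, with a median of 0.02, and the 3 with the lowest p were Map9 (0.12, SE 0.056), Tppp3 (0.14, SE 0.064) and Crmp1 (0.14, SE 0.070). Tubulin-modifying enzymes were above 0 for 11 of 20 tested, with a median of 0.01, and those named by the same rule were Ttll12 (-0.19, SE 0.13), Tpgs1 (0.10, SE 0.070) and Vash2 (0.36, SE 0.27). Severing and nucleation genes were above 0 for 9 of 14, with a median of 0.03, led by Tubgcp2 (0.13, SE 0.099), Fignl1 (0.66, SE 0.52) and Tubgcp4 (-0.09, SE 0.084). Folding factors, among them the CCT chaperonin on which tubulin chains fold, were above 0 for 16 of 22, with a median of 0.04, and Cct8 had 0.11 (SE 0.048) and Pfdn4 0.15 (SE 0.074). Tbcb, a tubulin folding cofactor, was counted 20 and 12 times in Sham+Veh, 0 times in both CPIP+Veh libraries, and 12 times in each CPIP+ETA library. With the CPIP+Veh group set at a floor of 3 counts, its depth-scaled sham level was 11.5-fold that floor (edgeR adjusted p = 0.375). That fold leaves out the error of the sham counts, which correspond to only 1.08 and 0.66 CPM. No gene of these 7 lists was called by edgeR in any of the 3 comparisons.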

How the data were processed

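Bulk RNA of 6 ganglion libraries was analysed from 1 table of expected counts (gene-level estimates, mostly with decimals) deposited by the authors. Columns were matched to samples by title. Rnor_6.0 is the genome build, per the submitters' processing notes. Neither the aligner nor the counter, nor how strand and shared reads were handled, is given in the sources used here. RNA with a RIN of at least 8.0 was sequenced on the BGISEQ-500, per the labels' protocols.

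Blank rows (2907 genes) were read as 0 and expected counts were rounded. The whole table was fitted in R 4.3.3 with edgeR 4.0.16 (quasi-likelihood test, TMM, filterByExpr with a minimum count of 10 and total of 15, 15531 genes, 3 residual degrees of freedom, group as the only term), and genes were called at an adjusted p under 0.05. SE is the log2 fold change over the square root of F. Alternatives used DESeq2 1.42.0, limma 3.58.1, other scalings and filters, 2 groups only, a replicate block and each library left out. The edgeR step was run on simulated data with the same spread for every gene and planted changes larger than those of any member. That run therefore does not bear on changes of the members' size. Sequences came from RefSeq tables (GRCr8, 10 of 10 gene identifiers matched). Every member was named, and in each list the 3 genes with the lowest p in CPIP+Veh against sham. The members and lists were chosen with earlier results of these data known. Figures used matplotlib 3.10.9.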

Additional observations from a re-analysis of the deposited data

How the results depend on the processing

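No member was called under edgeR's main settings in any comparison, and that held under all 17 alternatives (DESeq2, limma-voom, scaling by RLE, by upper quartile or by totals, no filter, 1 CPM in 2 libraries, 2 groups only, the replicate block, a robust prior, an adjusted p under 0.1 and each of 6 libraries left out), except that DESeq2 called 1 in CPIP+Veh against Sham+Veh, Tubb2b (log2 fold change 0.33). Where a group kept 1 library, its spread was taken from the other groups. Of 510 member fold changes under alternatives, 482 kept direction and side of the threshold and 27 changed sign, none of them called. The looser threshold and the robust prior had the fold changes of the main fit, so they do not bear on direction. Leaving out a library of the group not compared changed the fold changes little. With library totals only, Tubb4a had -0.0042 in CPIP+Veh against Sham+Veh and Tubb4b -0.0041 in CPIP+ETA against Sham+Veh, both with the sign changed. With 1 library left out, signs changed in CPIP+Veh against Sham+Veh (without Sham+Veh 1, Sham+Veh 2 and CPIP+Veh 2), with ranges of -0.0921 to 0.0034 for Tubb4b, -0.0145 to 0.0428 for Tubb5 and -0.0491 to 0.0505 for Tubb4a. With 1 library left out, signs changed in CPIP+ETA against CPIP+Veh (without CPIP+Veh 2, CPIP+ETA 1 and CPIP+ETA 2), with ranges of -0.1035 to 0.005 for Tuba1b, -0.2231 to 0.2226 for Tuba1c, -0.1245 to 0.099 for Tubb4a, -0.0489 to 0.0402 for Tubb5, -0.0329 to 0.1057 for Tuba4a, -0.1267 to 0.051 for Tubb2a and -0.1187 to 0.0228 for Tubb3. With 1 library left out, signs changed in CPIP+ETA against Sham+Veh (without Sham+Veh 1, Sham+Veh 2, CPIP+ETA 1 and CPIP+ETA 2), with ranges of -0.0298 to 0.0691 for Tuba1b, -0.1188 to 0.1045 for Tubb4a, -0.0442 to 0.0548 for Tubb4b, -0.0303 to 0.0585 for Tubb5, -0.0425 to 0.135 for Tubb2a, -0.0589 to 0.387 for Tuba1c and -0.0996 to 0.0388 for Tuba4a. The log2 ratio of summed levels was 0.0488 for CPIP+Veh against Sham+Veh without CPIP+Veh 2. For CPIP+ETA against Sham+Veh it was -0.0047 without CPIP+ETA 1. Both shifts were about the size of the spread between libraries. With 2 libraries in a group and little spread in sham, leaving out either CPIP library shifts the ratio by about that spread. These shifts therefore cannot single out a library. With 1 library left out the ratio of summed levels was 0.0488 to 0.1193 for CPIP+Veh against Sham+Veh. It was -0.0892 to -0.0014 for CPIP+ETA against CPIP+Veh and -0.0047 to 0.0831 for CPIP+ETA against Sham+Veh. The ratio of Tubb2b to Tubb2a kept its direction with unrounded counts and without each library. The cause of these shifts was not tested. Shares by length were not run, since lengths are not used here.

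The titles do not say what libraries of the same number share. Deviations of the replicate 1 libraries correlated across genes at 0.035, -0.106 and 0.05 between the groups. A correlation over all genes cannot show whether some genes follow the number. In every group the neuron marker sum was higher in library 1. The skeletal muscle sum and the alpha to beta ratio were higher in library 2. The Schwann cell sum and the summed members kept no such order. With the replicate block 0 members were called in every comparison, and Tubb2b had 0.33 (adjusted p = 0.528) for CPIP+Veh against Sham+Veh. Members held 1803 to 120707 counts per library, and each group had 2 libraries.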
